A study of Mus musculus with 14 samples.

Results

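Cystatin C (Cst3), cystatin B (Cstb) and the cathepsins Ctsa, Ctsb, Ctsd, Ctsh, Ctsk, Ctsl and Ctsz were followed in the retinal pigment epithelium (RPE), the pigmented cell layer that takes up the shed tips of photoreceptor outer segments and digests them in its lysosomes. These 9 genes, found by symbol among the 42687 genes of the count table, were selected as a family. Cst3 was chosen by its log2 fold change, for a large rise in Clic4 knockout (KO) mice against wild type that differed from the change in the other 2 sets of mice, so the Cst3 values are given as a description without a test. The libraries came from 14 male mice of 3 months on a C57BL/6J background, 1 library per mouse from the RPE of both eyes. All KO mice were Best1-Cre+/-; Clic4f/f, in which the Best1 promoter drives Cre in the RPE and both Clic4 alleles are floxed. Each of the 3 sets had KO mice of its own. In the WT set, 3 KO mice were compared with 3 wild-type mice (WT), which carry neither Cre nor floxed alleles. In the Ctrl set, 2 KO mice were compared with 2 Clic4f/f mice without Cre (Ctrl). In the CreCtrl set, 2 KO mice were compared with 2 Best1-Cre+/- mice without floxed alleles (CreCtrl). The control genotype and the set changed together and cannot be told apart. The RPE was detached with enzymes and no cell sort is described, and in such bulk samples fewer cells of a type and less RNA per cell cannot be told apart.

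Cystatin C is a secreted inhibitor of the papain-like cysteine proteases, which include cathepsins B, H, K, L and S, and RPE cells are known to make and release it. Cystatin B is an inhibitor of the same proteases that stays inside the cell. Cathepsin D, encoded by Ctsd, is an aspartic protease and the main enzyme that digests rhodopsin-rich outer segments in the RPE, and Ctsa encodes a serine carboxypeptidase that also protects other lysosomal enzymes. Neither of these belongs to the cystatin-sensitive class. Among the cysteine cathepsins, Ctsb and Ctsl encode broad lysosomal proteases, Ctsh an aminopeptidase, Ctsz a carboxypeptidase and Ctsk a protease that cleaves collagen and elastin.

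The libraries held between 9828293 and 32384166 counts, so that the limit of 3 counts stood at 0.0926 to 0.305 CPM, the unit used for levels, which scales each library to the same total. Clic4, the targeted gene, had 226, 229.9 and 218 CPM in WT and 33.1, 23.3 and 17.9 CPM in the KO mice of that set. It had 71.5 and 62.1 CPM in Ctrl against 9.79 and 33.9 CPM in KO, and 86.6 and 108 CPM in CreCtrl against 13.7 and 30.5 CPM in KO, so that each KO library lay below all controls of its set. The 10 RPE marker genes were present in all libraries, Best1 only at 1.19 to 5.94 CPM, but their summed level was far lower in WT (15115 to 22461 CPM) than in the KO mice of that set (71979 to 80505 CPM). Fibroblast markers moved the other way, with sums of 7433 to 7552 CPM in WT and 265 to 738 CPM in KO. KO replicate 2 of the Ctrl set stood apart from the other KO mice by its myeloid genes. Values without it are also given for Ctsa, Ctsb, Ctsh, Ctsz, Ctss and Lgmn. The Clic4 log2 fold change in the Ctrl set was -1.61 with it and -2.77 without it. The 2 Ctrl libraries were the least alike of any pair within a group, by a chi-square of the counts (138 per gene, against 19.7 to 61.4). Ctrl replicate 2 had the highest Pmel (745 CPM) and Myh11 (212 CPM) of the 14 libraries.

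Promoter sequence was available for 6 of the 9 members (Cst3, Ctsa, Ctsd, Ctsk, Ctsl and Ctsz) from RefSeq on GRCm38.p6. The 250 bases upstream of the RefSeq start are shown for Cst3, the member with the highest level per length, for Ctsd, the cathepsin with the highest, and for Ctsk, a cathepsin lower in KO than in WT. The windows lie at chr2:148875513-148875762 on the minus strand, chr7:142387828-142388077 on the minus strand and chr3:95498960-95499209 on the plus strand. Each is written 5′ to 3′ toward the gene, and capitals mark the E-box CACGTG and the GC box GGGCGG on either strand.
Cst3: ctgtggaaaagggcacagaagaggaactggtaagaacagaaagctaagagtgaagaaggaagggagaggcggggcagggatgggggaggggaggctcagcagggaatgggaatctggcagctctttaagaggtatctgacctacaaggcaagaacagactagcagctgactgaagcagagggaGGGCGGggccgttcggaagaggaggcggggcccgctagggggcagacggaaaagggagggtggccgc
Ctsd: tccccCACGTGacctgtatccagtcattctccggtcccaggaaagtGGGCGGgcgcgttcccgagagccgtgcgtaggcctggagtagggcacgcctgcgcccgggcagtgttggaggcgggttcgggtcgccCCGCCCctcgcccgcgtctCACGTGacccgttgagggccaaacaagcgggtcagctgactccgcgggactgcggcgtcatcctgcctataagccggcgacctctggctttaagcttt
Ctsk: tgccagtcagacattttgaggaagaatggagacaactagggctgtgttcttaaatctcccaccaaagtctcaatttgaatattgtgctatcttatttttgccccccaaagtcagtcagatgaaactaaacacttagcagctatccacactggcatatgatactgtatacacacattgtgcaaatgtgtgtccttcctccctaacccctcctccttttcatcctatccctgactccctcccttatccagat
The Cst3 window was 59.6% G and C, with 8 CpG dinucleotides and 1 GC box that began at -67 from the start. The Ctsd window was richer, at 67.2% and 27 CpG, with 2 E-boxes at -245 and -98 and 2 GC boxes at -204 and -117. The Ctsk window was 43.2% G and C, held no CpG and had neither of the marked motifs. The E-box of Ctsd at -98 lies within TCACGTGA, the core of the CLEAR element bound by TFEB, a regulator of lysosomal genes. Windows were set from RefSeq starts, and 180 of the 250 bases for Cst3 and 211 for Ctsd lie within the GENCODE gene, whose start is farther upstream, as do all 250 for Ctsl and for the second start of Ctsa, while the RefSeq start of Ctsk lies 46 bases before the GENCODE start. Of the other windows, a second start of Ctsa held TCACGTGA at -13, Ctsl held CACGTG at -236 and Ctsz held GC boxes at -32 and -27. Among 32851 promoter windows of the same length, 6.02% held CACGTG, 0.785% TCACGTGA and 32.7% GGGCGG on either strand, and the median G and C content was 52.4%. None of the 6 genes had TGANTCA (AP-1; found in 6.75% of windows), TCATGTG (the M-box core, 3.25%) or TATAAA (the TATA box, 12.4%) on either strand of its windows. These matches describe letters, not binding sites.

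Cst3 (ENSMUSG00000027447, chr2:148871722-148875692, minus strand) was the most abundant member per length of transcript in all 6 groups, and its KO mice lay above all controls of their set in the 3 sets. The 3 WT libraries had 1619, 2441 and 3257 CPM, and the 3 KO libraries 14182, 14606 and 13043 CPM. The Ctrl libraries had 5769 and 5695 CPM, and their KO mice 9816 and 8623 CPM. The CreCtrl libraries had 7594 and 5007 CPM, and their KO mice 10387 and 10813 CPM. The highest library thus stood 9.02-fold above the lowest, and WT was the lowest group and the KO mice of the WT set the highest. The KO to control log2 fold change was 2.37 (SE 0.25, n = 3 and 3) in the WT set, or 5.17-fold. It was 0.68 (SE 0.309, n = 2 and 2) in the Ctrl set and 0.72 (SE 0.271, n = 2 and 2) in the CreCtrl set, or 1.61-fold and 1.64-fold. The last value moved to 0.42 without CreCtrl replicate 2 and to 1.04 without CreCtrl replicate 1, whose levels were 5007 and 7594 CPM.

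**Figure D1:**
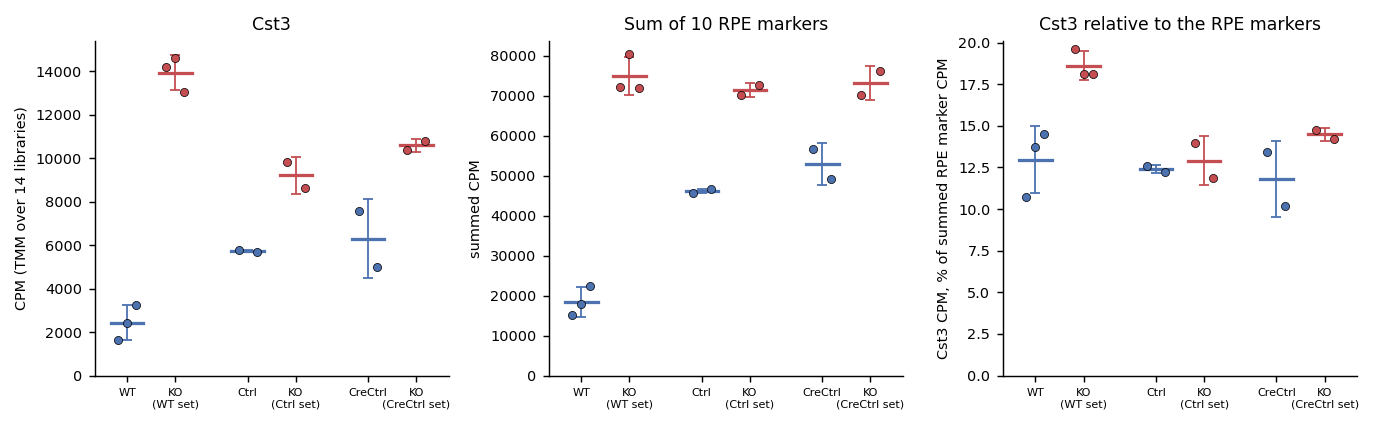
Cst3 level in CPM, the summed level of 10 RPE marker genes in CPM, and Cst3 as a percentage of that sum, for the WT, Ctrl and CreCtrl sets. Dots are libraries (blue control, red KO), bars are means and error bars the SD. Cst3 and the RPE marker sum are both lowest in WT, and the percentage is highest in the KO mice of the WT set (18.1 to 19.6%).

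The WT set differed from the other 2 more in its controls than in its KO mice. Mean Cst3 was 2439 ± 819 CPM (SD, n = 3) in WT against 5732 ± 52.8 in Ctrl and 6300 ± 1829 in CreCtrl (n = 2 each), and the 3 KO means were 13944 ± 808 (n = 3), 9219 ± 844 and 10600 ± 301 CPM. In the fit over the 14 libraries, WT was lower than Ctrl by a log2 difference of -1.23 and lower than CreCtrl by -1.37, while Ctrl and CreCtrl differed by 0.14. The KO mice of the WT set were higher than those of the Ctrl set by 0.60 and higher than those of the CreCtrl set by 0.40. These contrasts chose the gene and carry no test. In order of level, the 6 groups ran from WT through Ctrl, CreCtrl, KO of the Ctrl set and KO of the CreCtrl set to KO of the WT set. The Ctrl and CreCtrl libraries overlapped. The 2 KO groups of the Ctrl and CreCtrl sets did not overlap each other.

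Most RPE marker genes moved with Cst3. Of 10, edgeR called 9 higher in KO than in WT (16.1% of all genes), and 1 higher and 1 lower than in CreCtrl (3.6% and 12.2%). Against Ctrl it called 0 (0% of all genes), where 1 had an unadjusted p under 0.05 and DESeq2 called 1. Mean Best1 ran lower in KO of the WT set (1.39 against 4.47 CPM) and of the CreCtrl set (1.38 against 2.93 CPM). Mean Pmel, named after its values were seen, did so in the Ctrl set (150 against 475 CPM) and the CreCtrl set (142 against 311 CPM). The sum of the 10 markers spanned 5.33-fold over the 14 libraries, whereas Cst3 as a percentage of that sum spanned 1.93-fold. Cst3 was 13.0 ± 2.00% of the RPE marker sum in WT and 18.6 ± 0.855% in the KO mice of that set (SD, n = 3 each), and the libraries did not overlap. It was 12.4 ± 0.269% in Ctrl and 12.9 ± 1.49% in their KO mice, which overlapped, and 11.8 ± 2.27% in CreCtrl and 14.5 ± 0.409% in their KO mice. When transthyretin (Ttr), the most abundant marker, was left out of the sum, the WT set still did not overlap, at 19.8 to 31.3% in WT and 35.7 to 40.8% in KO. The Ctrl set then had 19.2 to 23.9% in Ctrl and 22.7 to 23.7% in KO, and the CreCtrl set 23.2 to 27.1% and 25.2 to 26.8%. The part of the RPE markers in the Cst3 difference was not tested.

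The genes whose level followed Cst3 most closely over the 14 libraries were Ptgds, Enpp2, Ldhb, Mogat1 and Taldo1. The measure was the root mean square difference of log2 CPM after each gene was centred on its own mean, and it was 0.179 for Ptgds and 0.202 to 0.223 for the other 4, against a median of 1.096 over 17616 genes. Ptgds, which encodes prostaglandin D synthase, had 9824 ± 1780 CPM in WT and 59096 ± 4435 CPM in the KO mice of that set (SD, n = 3 each). Among the other members Ctsd came nearest to Cst3, at 0.728 and rank 2663, and Ctsh was the farthest, at 2.409 and rank 16251. Ctsb, Ctsa, Cstb, Ctsz and Ctsl ranked between 4232 and 7601 and Ctsk ranked 13001.

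**Figure D2:**
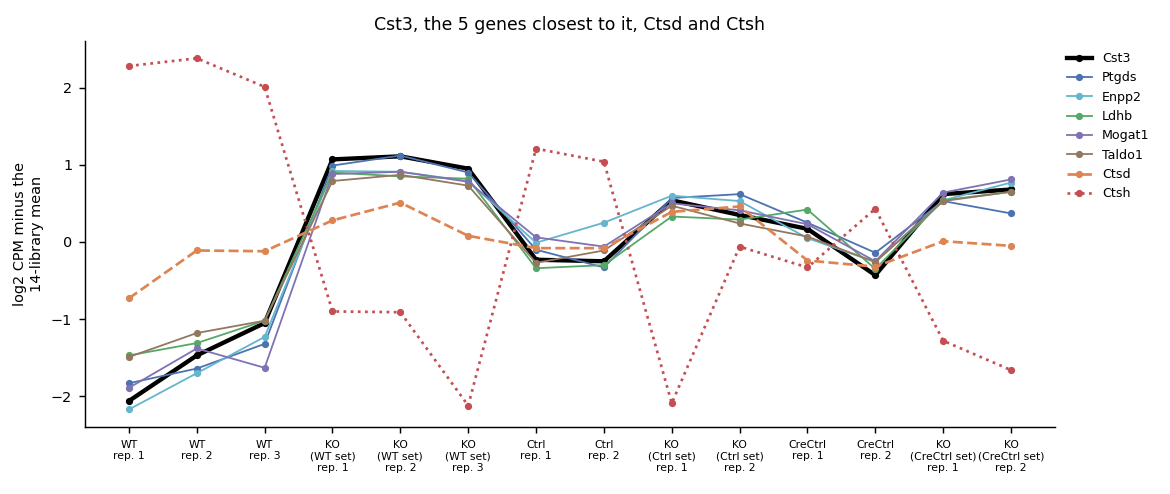
Log2 CPM per library, centred on each gene's mean over the 14 libraries, for Cst3, the 5 genes nearest to it (Ptgds, Enpp2, Ldhb, Mogat1 and Taldo1), and Ctsd and Ctsh. Lines join libraries only to guide the eye. The nearest genes run together with Cst3 and are lowest in WT, Ctsd runs flatter, and Ctsh runs the opposite way with its highest values in WT.

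On a scale that corrects for transcript length (CPM per kb of exon), Cst3 had mean levels of 1926 to 11014 and ranked from 3 to 6 among 42329 genes in the 6 groups. Ctsd followed at 1022 to 1682 (rank 12 to 18), then Ctsb at 206 to 349 and Ctsz at 106 to 160. Cstb (61.6 to 137), Ctsa (56.4 to 84.0) and Ctsl (45.4 to 66.7) were lower, and Ctsk (11.1 to 41.4) and Ctsh (2.61 to 33.8) were the least abundant. Cst3 exceeded Ctsb, the most abundant cysteine cathepsin per length, 7.48 to 11.7 times in WT and 39.9 to 41.4 times in the KO mice of that set. It exceeded Ctsb 16.9 to 18.6 times in Ctrl and 15.4 to 30.2 times in their KO mice, which overlapped, and 20.7 to 27.1 times in CreCtrl against 33.7 to 35.2 times in their KO mice. The summed level of the 5 cysteine cathepsins Ctsb, Ctsh, Ctsk, Ctsl and Ctsz was 433 to 567 CPM per kb in WT and 442 to 528 in the KO mice of that set. The summed levels of KO and WT overlapped. Those of the Ctrl set did too, at 463 and 475 in Ctrl and 437 and 720 in their KO mice. In the CreCtrl set KO was above control, at 424 and 441 against 400 and 361.5. As a share of all counts that set overlapped, at 0.1824 to 0.1858% in KO and 0.1822 to 0.1967% in CreCtrl.

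Cstb (ENSMUSG00000005054, chr10:78425669-78427622, plus strand), the intracellular inhibitor, was far less abundant, and its KO mice lay above their controls in 2 sets and below them in 1. The WT libraries had 52.9, 53.5 and 55.7 CPM and their KO mice 86.1, 63.1 and 66.8 CPM. The Ctrl libraries had 68.0 and 97.6 CPM and their KO mice 46.3 and 54.1 CPM. The CreCtrl libraries had 41.0 and 33.3 CPM and their KO mice 49.5 and 53.1 CPM. The groups did not overlap in any set, and KO was below control in the Ctrl set alone, but the WT set overlapped with library size alone. No change was called within a set by the edgeR quasi-likelihood test (a call is an adjusted p under 0.05): the log2 fold change was 0.27 (SE 0.152, adjusted p = 0.207), -0.72 (SE 0.264, adjusted p = 0.347) and 0.43 (SE 0.164, adjusted p = 0.101) in the WT, Ctrl and CreCtrl sets. The difference between the KO effects of the WT and Ctrl sets was called, at 1.14 (SE 0.268, adjusted p = 0.0311), where the median over all genes was 0.144. Cstb was the 1 of the 8 members other than Cst3 called in that contrast, in which 5.15% of 17662 genes were called. The CreCtrl set differed from the Ctrl set by 1.19, which was not called (adjusted p = 0.362, unadjusted p = 0.00139). In that contrast edgeR called 0 of the 8 and 0% of all genes, with 2 members at an unadjusted p under 0.05, and DESeq2 called 0 of the 8. Among the controls, Cstb was lower in WT than in Ctrl by -0.62 (adjusted p = 0.0315) and lower in CreCtrl than in Ctrl by -1.16 (adjusted p = 0.0119). The call on the difference of effects was lost without Ctrl replicate 2, the library at 97.6 CPM (0.78, adjusted p = 0.221). It was also lost without KO replicate 1 or 2 of the Ctrl set (adjusted p = 0.0808 and 0.0875), WT replicate 1 or 2 (0.057 and 0.0505) or KO replicate 1 of the WT set (0.053). Without Ctrl replicate 2 the difference between WT and Ctrl was -0.33 (adjusted p = 0.465) and that between CreCtrl and Ctrl -0.85 (adjusted p = 0.222). The first was also lost without any 1 WT replicate (adjusted p = 0.0624 to 0.0721), and the second without CreCtrl replicate 1 or 2 (adjusted p = 0.0502 and 0.179). The value within the CreCtrl set was 0.58 (adjusted p = 0.0358) without CreCtrl replicate 1.

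**Figure D3:**
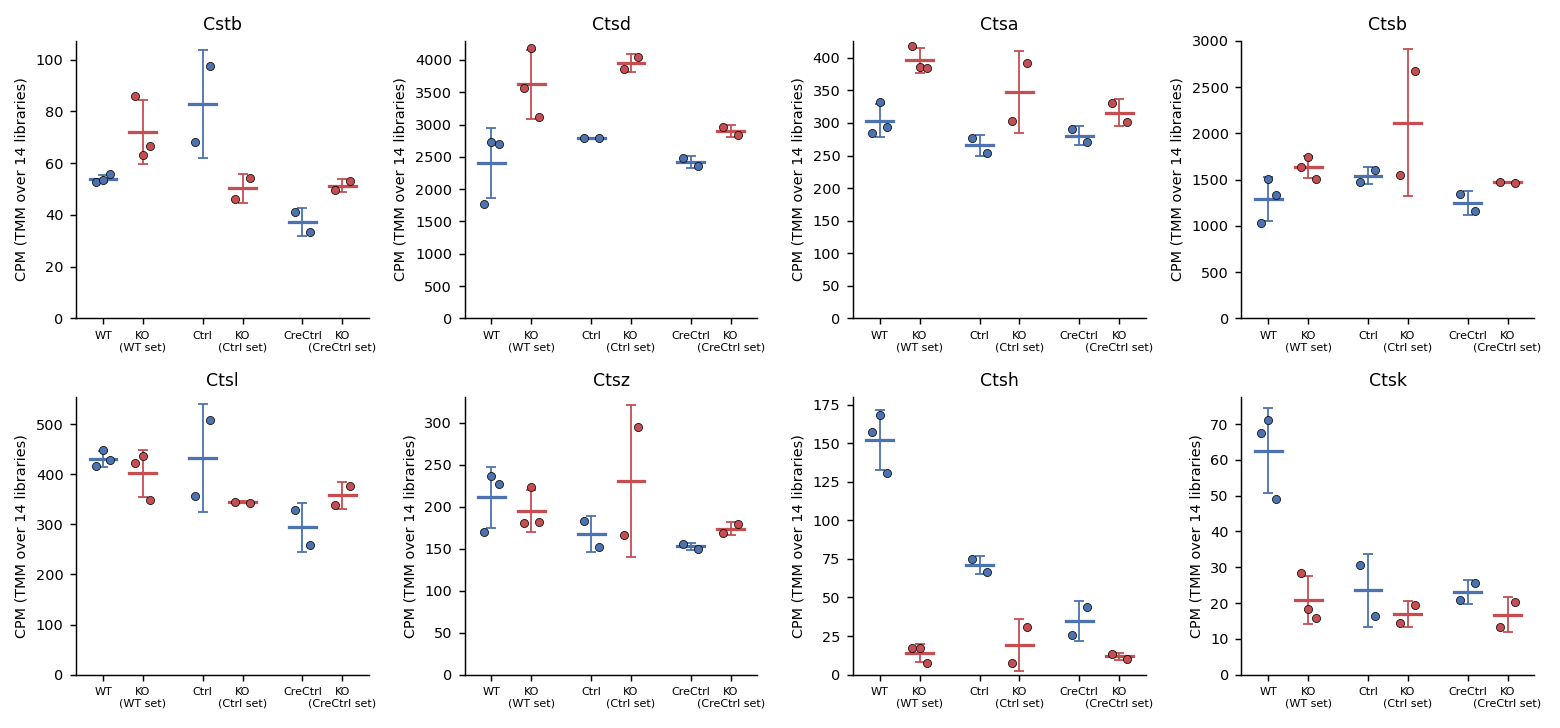
Levels in CPM of Cstb, Ctsa, Ctsb, Ctsd, Ctsh, Ctsk, Ctsl and Ctsz in the WT, Ctrl and CreCtrl sets. Dots are libraries (blue control, red KO), bars are means and error bars the SD. Ctsh is lower in KO in each set, Ctsk is lower in KO of the WT set, and Cstb is lower in KO only in the Ctrl set.

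Of the 8 members other than Cst3, edgeR called 2 lower in KO than in WT (Ctsh and Ctsk) and 0 higher, and DESeq2 called 3, Ctsd being higher. By edgeR, 35.1% of the 15428 genes tested were called in either direction, 19% lower and 16.1% higher. In the Ctrl set 0 of 8 were called, as were 0% of 15287 genes, although 1846 genes and 2 members (Cstb and Ctsh) had an unadjusted p under 0.05, and DESeq2 called 1168 genes and 1 member, Ctsh. In the CreCtrl set 1 was called, Ctsh, which was lower, where 15.8% of 15963 genes were called, 12.2% lower and 3.6% higher. The median log2 fold change of the 8 genes was -0.02, 0.03 and 0.18 in the WT, Ctrl and CreCtrl sets, beside -0.079, 0.013 and -0.022 over all genes. The KO libraries of the WT set lay wholly above WT for 4 of the 8 genes and wholly below for 2, where 25.5% and 22.3% of all genes did so. In the Ctrl set 2 lay above and 3 below (16.9% and 23.6% of all genes), and in the CreCtrl set 6 above and 2 below (34.3% and 34.9%). With library size alone as the scaling these counts were 0 above and 4 below, 1 and 3, and 1 and 3, and on that scale the median over all genes was -0.323, -0.105 and -0.243 in the WT, Ctrl and CreCtrl sets.

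**Figure D4:**
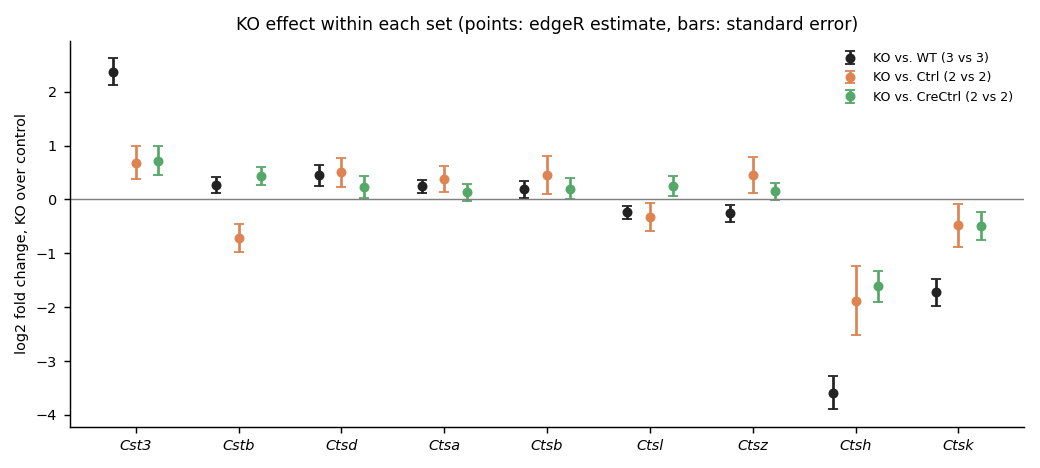
KO to control log2 fold change of the 9 members in the WT, Ctrl and CreCtrl sets, with the SE of the edgeR fit as error bars. Cst3 reaches 2.37 in the WT set, Ctsh falls furthest, to -3.59 in that set, and most other members lie within 1 of 0.

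Ctsd (ENSMUSG00000007891, chr7:142375911-142388038, minus strand), the aspartic protease of outer segment digestion, had higher values in KO than in control. The WT libraries had 1778, 2732 and 2701 CPM and their KO mice 3572, 4178 and 3117 CPM. The Ctrl libraries had 2792 and 2789 CPM and their KO mice 3860 and 4047 CPM. The CreCtrl libraries had 2485 and 2357 CPM and their KO mice 2967 and 2837 CPM. The KO mice were above the controls without overlap in the 3 sets, though in the WT and CreCtrl sets this separation was lost with library size alone. The log2 fold change was 0.45 (SE 0.196, adjusted p = 0.116), 0.50 (SE 0.275, adjusted p = 0.62) and 0.23 (SE 0.198, adjusted p = 0.433), with no call within a set by edgeR. Against WT, Ctsd was called higher by DESeq2 (0.45, adjusted p = 0.0369) and by edgeR when the 14 libraries shared 1 fit (0.59, adjusted p = 0.0256). Relative to the RPE marker sum, Ctsd was lower in KO of the WT set (4.33 to 5.19%) than in WT (11.8 to 15.4%). The same held for KO of the Ctrl set (5.49 to 5.566%) against Ctrl (5.982 to 6.096%). In the CreCtrl set Ctsd was 3.726 to 4.222% in KO and 4.385 to 4.796% in CreCtrl. With this sum, Ttr included, the libraries did not overlap in any set, and each direction was the reverse of that in CPM. Without Ttr the marker sum was 24190 and 29610 CPM in Ctrl and 41513 and 38053 CPM in their KO mice. Relative to that smaller sum, Ctsd of KO and control overlapped in the Ctrl set. The exons of Ctsd share 808 bases with the predicted gene Gm49369 on the same strand.

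Ctsa (ENSMUSG00000017760, chr2:164832873-164841032, plus strand), the serine carboxypeptidase, had 285, 332 and 293 CPM in WT and 418, 386 and 384 CPM in the KO mice of that set. It had 277 and 255 CPM in Ctrl against 302 and 391 CPM in KO, and 291 and 270 CPM in CreCtrl against 330 and 301 CPM in KO. The groups of each set did not overlap and KO was higher. They overlapped in each set with library size alone, and in the CreCtrl set also with RLE factors. The log2 fold changes of 0.24 (SE 0.119, adjusted p = 0.154), 0.38 (SE 0.245, adjusted p = 0.708) and 0.13 (SE 0.164, adjusted p = 0.58) were not called. Against WT, Ctsa was called higher by edgeR when the 14 libraries shared 1 fit (0.38, adjusted p = 0.0374). Its value in the Ctrl set was 0.19 without KO replicate 2. Exons of Neurl2 and Pltp overlap those of Ctsa on the opposite strand by 324 and 495 bases, and the strand setting of the counting was not given in the sources used here.

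Ctsb (ENSMUSG00000021939, chr14:63122462-63145923, plus strand), the cysteine cathepsin with the highest level per length here, had 1035, 1508 and 1331 CPM in WT and 1637, 1748 and 1511 CPM in KO. It had 1479 and 1606 CPM in Ctrl and 1552 and 2676 CPM in their KO mice, which overlapped, and 1341 and 1156 CPM in CreCtrl against 1473 and 1467 CPM in KO. KO lay above WT and above CreCtrl without overlap. This separation was lost in both sets with library size alone, and in the WT set also with RLE factors. The log2 fold changes of 0.19 (SE 0.16, adjusted p = 0.399), 0.45 (SE 0.348, adjusted p = 0.78) and 0.20 (SE 0.194, adjusted p = 0.475) were not called. The value in the Ctrl set was 0.01 without KO replicate 2, the library with 2676 CPM. Ctsz (ENSMUSG00000016256, chr2:174427493-174439039, minus strand) behaved in the same way in that set, at 182 and 153 CPM in Ctrl and 167 and 295 CPM in KO, with a log2 fold change of 0.46 (SE 0.333, adjusted p = 0.761) that became -0.01 without that library. In the WT set Ctsz ranged from 170 to 237 CPM in WT and from 180 to 224.0 CPM in KO, with a log2 fold change of -0.26 (SE 0.161, adjusted p = 0.264). Ctsz was called lower there with library size alone (-0.50, adjusted p = 0.0353), where the median over all genes was -0.323. Its CreCtrl libraries had 156 and 149.9 CPM and their KO mice 168 and 179 CPM, a log2 fold change of 0.15 (SE 0.153, adjusted p = 0.498) whose groups changed order with library size alone. Exons of Fdft1 share 774 bases with Ctsb on the opposite strand.

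Ctsl (ENSMUSG00000021477, chr13:64359337-64370890, minus strand) showed no change called within a set by edgeR with TMM factors. It had 417, 448 and 428 CPM in WT and 422, 437 and 348 CPM in KO, which overlapped. In the Ctrl set it had 357 and 509 CPM in Ctrl against 346 and 343 CPM in KO, and in the CreCtrl set 329 and 259 CPM in CreCtrl against 339 and 378 CPM in KO. The KO mice lay below Ctrl and above CreCtrl, though they overlapped with CreCtrl under both other scalings and lay below WT under both, and the log2 fold changes were -0.24 (SE 0.124, adjusted p = 0.171), -0.33 (SE 0.264, adjusted p = 0.793) and 0.25 (SE 0.192, adjusted p = 0.37). Scaled by library size alone, Ctsl was called lower in KO than in WT (-0.49, adjusted p = 0.0143) and with all mice pooled (-0.33, adjusted p = 0.0292). On that scale the medians over all genes were -0.323 and -0.236. A processed pseudogene on the same strand (Gm49230) and an antisense gene (Gm47123) overlap the exons of Ctsl, and neither was among the genes counted.

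Ctsh (ENSMUSG00000032359, chr9:90054152-90076089, plus strand), which encodes the aminopeptidase cathepsin H, had the largest log2 fold change of the 8 in each set and was lower in KO. The WT libraries had 157, 169 and 131 CPM and their KO mice 17.4, 17.1 and 7.36 CPM. The Ctrl libraries had 75.1 and 66.8 CPM and their KO mice 7.50 and 31.2 CPM. The CreCtrl libraries had 25.8 and 43.8 CPM and their KO mice 13.3 and 10.2 CPM. The KO mice lay below all controls of their set in each case, also with the other 2 scalings, and the 14 libraries spanned 22.9-fold. The log2 fold change was -3.59 (SE 0.304, adjusted p = 7.22e-05) in the WT set and -1.61 (SE 0.286, adjusted p = 0.0153) in the CreCtrl set, a call lost when the 14 libraries shared 1 fit (adjusted p = 0.0954). It was -1.88 in the Ctrl set (SE 0.644, adjusted p = 0.309, unadjusted p = 0.0292), with -3.24 (adjusted p = 0.0887) without KO replicate 2 and -1.19 (adjusted p = 0.308) without KO replicate 1. The log2 fold change against WT minus the one against Ctrl was -1.57 (adjusted p = 0.192), and minus the one against CreCtrl it was -1.88 (adjusted p = 0.193), and neither difference was called.

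Ctsk (ENSMUSG00000028111, chr3:95499256-95509362, plus strand), the collagen-cleaving cathepsin, was called lower in KO in the WT set, and the differences of its KO effect between sets were not called. The WT libraries had 67.6, 71.2 and 49.1 CPM and their KO mice 28.4, 18.3 and 15.9 CPM. The Ctrl libraries had 30.8 and 16.4 CPM and their KO mice 14.4 and 19.4 CPM, and the CreCtrl libraries had 20.8 and 25.5 CPM and their KO mice 13.4 and 20.2 CPM. The WT libraries stood above all 11 others, and the Ctrl set overlapped with its KO mice. The log2 fold change was -1.72 (SE 0.25, adjusted p = 0.000961) in the WT set, -0.48 (SE 0.399, adjusted p = 0.807) in the Ctrl set and -0.49 (SE 0.257, adjusted p = 0.202) in the CreCtrl set. The effect in the WT set differed from those in the Ctrl and CreCtrl sets by -1.11 (adjusted p = 0.181) and -1.12 (adjusted p = 0.261). Between the WT and CreCtrl effects edgeR called 0 of the 8 members, with 2 (Ctsh and Ctsk) at an unadjusted p under 0.05, DESeq2 called 1, and 1.49% of 17662 genes were called.

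Markers of several other cell types moved with Ctsh and Ctsk. The sum of 10 fibroblast markers was 1225 to 2354 CPM in Ctrl and 124 to 318 CPM in their KO mice, and 1299 to 2638 CPM in CreCtrl and 255 to 329 CPM in theirs. By edgeR 10 of 10 were called lower in the WT set (19% of all genes), 9 in the CreCtrl set (12.2%) and 0 in the Ctrl set (0%). In the Ctrl set 8 had an unadjusted p under 0.05 and DESeq2 called 6. Of 10 myeloid markers, 9 were called lower in the WT set (19% of all genes), 8 in the CreCtrl set (12.2%) and 0 in the Ctrl set (0%). In the Ctrl set 7 of the 10 had a positive log2 fold change, 0 had an unadjusted p under 0.05 and DESeq2 called 0. Csf1r was called higher in the WT set (16.1% of all genes), stood at 450.5 to 836 CPM and was left out of the sum after its values were seen. The sum of the other 9 was 721 to 1075 CPM in WT and 31.8 to 114 CPM in KO, and 134 to 294 CPM in CreCtrl and 23.8 to 39.2 CPM in KO. In the Ctrl set it was 173 to 421 CPM in Ctrl and 53.8 and 596 CPM in KO, the second being replicate 2. The sum of all 10, with Csf1r, was 1206 to 1564 CPM in WT and 772 to 904 CPM in KO. That sum overlapped in the CreCtrl set, at 749 to 851 CPM in CreCtrl and 752 to 767 CPM in KO. It also overlapped in the Ctrl set, at 623 to 1002 CPM in Ctrl and 820.5 to 1292 CPM in KO. In the WT and CreCtrl sets, 7 and 6 of 8 endothelial markers were called lower (19% and 12.2% of all genes). Erythrocyte markers had 5 and 2 of 5 called lower, and pericyte and smooth muscle markers 3 of 7 and 2 of 6. Rod photoreceptor markers had 0 and 8 of 8. Melanocyte and Schwann cell markers had 2 of 6 lower in both, and 2 higher in the WT set. These lists had 0 calls in the Ctrl set (0% of all genes). Immediate-early genes, which rise with cell stress and handling, were also lower in KO. Their sums were 13362 to 15859 CPM in WT and 976 to 2280 CPM in the KO mice of that set. They were 6908 to 10364 CPM in Ctrl against 449 to 1908 CPM in KO, and 4875 to 5252 CPM in CreCtrl against 332 to 735 CPM in KO. By edgeR 10 of 10 were called lower in the WT set (19% of all genes), 10 in the CreCtrl set (12.2%) and 0 in the Ctrl set (0%). The part of these genes in the Ctsh and Ctsk differences was not tested.

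**Figure D5:**
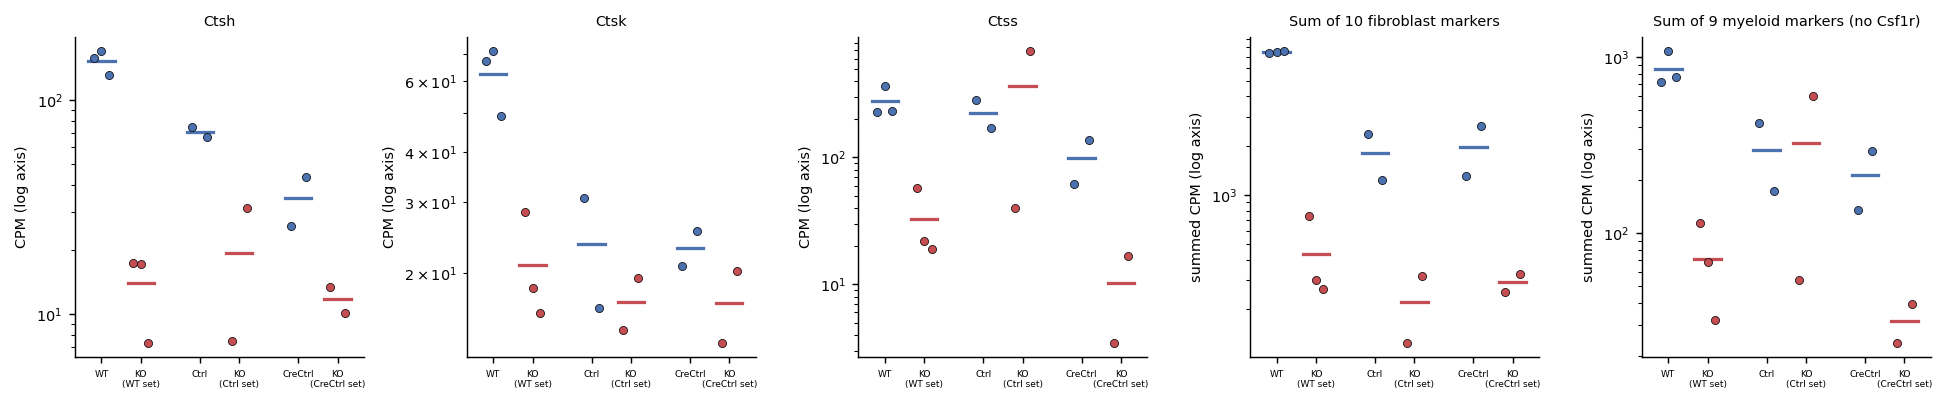
Levels in CPM, on log axes, of Ctsh, Ctsk, Ctss, the sum of 10 fibroblast markers and the sum of 9 myeloid markers in the WT, Ctrl and CreCtrl sets. Csf1r is left out of the myeloid sum, and with it the Ctrl and CreCtrl sets overlap with their KO mice. Dots are libraries (blue control, red KO) and bars are means. The KO mice are lower in each panel of the WT set, and KO replicate 2 of the Ctrl set is high for Ctss (683 CPM) and the myeloid sum (596 CPM).

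When all 7 KO mice were compared with all 7 controls with the set as a term, 4 of the 8 members were called, 2 higher and 2 lower, where 40.6% of 14925 genes were called (21% higher and 19.6% lower). Ctsd was higher at 0.44 on the log2 scale (SE 0.151, adjusted p = 0.0316), and Ctsa was higher at 0.29 (SE 0.0953, adjusted p = 0.0261). Ctsh was lower at -2.49 (SE 0.384, adjusted p = 0.00042), and Ctsk was lower at -0.98 (SE 0.242, adjusted p = 0.00598). Cst3 had 1.45, given without a test, and Cstb had 0.07. The calls of Ctsh and Ctsk held in all 19 alternatives tried, and those of Ctsd and Ctsa were each lost in 9. Ctsa lost its call without Ctrl replicate 2 (adjusted p = 0.0508), any 1 WT replicate (0.0527 to 0.0913) or KO replicate 1 of the WT set (0.0527). Ctsd lost its call without Ctrl replicate 1 (adjusted p = 0.0591), any 1 WT replicate (0.0517 to 0.0727) or KO replicate 1 or 2 of the WT set (0.0572 and 0.0646). With library size alone the values of Ctsd and Ctsa were 0.20 (adjusted p = 0.281) and 0.05 (adjusted p = 0.727), on a scale where the median over all genes was -0.236, against 0.006 with TMM factors.

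Between the controls of different sets, Ctsk was higher in WT than in Ctrl by 1.41 (SE 0.337, adjusted p = 0.00916) and higher in WT than in CreCtrl by 1.44 (SE 0.337, adjusted p = 0.0136). Ctsh was higher in WT than in CreCtrl by 2.13 (SE 0.501, adjusted p = 0.0139), and by 1.10 than in Ctrl, which was not called (adjusted p = 0.122). The Ctsk calls were lost without Ctrl replicate 2 (1.02, adjusted p = 0.141) and without CreCtrl replicate 1 or 2 (1.29, adjusted p = 0.172, and 1.57, adjusted p = 0.0565). The Ctsh call was lost without CreCtrl replicate 1 (1.79, adjusted p = 0.184). With Cstb, these made 2 of 8 members called between WT and Ctrl (21.6% of 17662 genes), 2 between WT and CreCtrl (12.6%) and 1 between CreCtrl and Ctrl (1.69%). Between the KO groups of the sets 0 of 8 members were called, where 3.7%, 0.226% and 1.36% of genes were called for WT against Ctrl, WT against CreCtrl and CreCtrl against Ctrl. At an unadjusted p under 0.05 these contrasts had 1 (Cstb), 2 (Cstb and Ctsa) and 0 of the 8, and DESeq2 called 0 in each.

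The other cystatins were mostly at or near 0. Of 19 on the list, 17 were in the table and 9 of these had no count in any library. Fetub, which encodes fetuin-B, rose from 7.70 ± 1.48 CPM in WT to 68.3 ± 13.5 CPM in KO (SD, n = 3 each), a log2 fold change of 3.01 (SE 0.237, adjusted p = 5.81e-05). It was 0.97 (adjusted p = 0.21) in the Ctrl set and 0.45 (adjusted p = 0.171) in the CreCtrl set, the latter 0.76 (adjusted p = 0.0306) without CreCtrl replicate 1, and the effect in the WT set exceeded these by 2.18 (adjusted p = 0.0112) and 2.66 (adjusted p = 0.0136), both called. Cst6 rose in the WT set as well, by 1.84 (adjusted p = 0.00779), so that 2 of the 4 cystatins tested there were called higher, beside 16.1% of all genes. By edgeR 0 of 3 were called in the Ctrl set, beside 0% of all genes, where 2 had an unadjusted p under 0.05 and DESeq2 called 1. Csta1 was scarce, with mean levels of 0.947 CPM in WT, 4.15 CPM in Ctrl and 0 in CreCtrl, with both KO libraries of the Ctrl set at 0. It was the gene DESeq2 called there, and edgeR called it without Ctrl replicate 1 (adjusted p = 0.0443). Cst7, chosen after its values were seen, was the 1 of 3 called lower in the CreCtrl set (12.2% of all genes), at 1.37 CPM in CreCtrl and below the limit of 3 counts in KO.

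Of the 16 other cathepsins and legumain, 8 had no count in any library and 6 could be tested within the sets. Ctss, the cathepsin of macrophages and microglia and a target of cystatin C, fell by 3.20 on the log2 scale in the WT set (adjusted p = 0.000656) and by 3.29 in the CreCtrl set (adjusted p = 0.0266, and 0.0842 when the 14 libraries shared 1 fit). In the Ctrl set its KO mice had 39.9 and 683 CPM, and the log2 fold change was 0.68 with both (adjusted p = 0.926) and -2.50 without KO replicate 2 (adjusted p = 0.116). Ctsc, which activates serine proteases of immune cells, rose by 0.51 in the WT set (adjusted p = 0.00908) and by 0.75 in the CreCtrl set (adjusted p = 0.047), and had -0.12 in the Ctrl set. The first call was lost with library size alone (0.26, adjusted p = 0.113), and the second with library size alone (0.52, adjusted p = 0.0653) and without CreCtrl replicate 2 (0.56, adjusted p = 0.128) or KO replicate 2 of the CreCtrl set (0.55, adjusted p = 0.266). Lgmn, the asparaginyl endopeptidase that processes cathepsins, was not called in any set, at -0.13, 0.25 and 0.41. Its value in the Ctrl set was -0.09 without KO replicate 2. Against WT it was called lower with library size alone (-0.38, adjusted p = 0.0334). The list had 1 gene called higher and 1 called lower in the WT set (16.1% and 19% of all genes), 0 against Ctrl (0 at an unadjusted p under 0.05 and 0 by DESeq2), and 1 higher and 1 lower in the CreCtrl set (3.6% and 12.2%), with a median of -0.35, 0.04 and 0.28.

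Genes that deliver enzymes to the lysosome or build it were called in both directions. Of 20, all tested, KO mice of the WT set had 7 called higher and 8 called lower (16.1% and 19% of all genes), with 0 in the Ctrl set (0 at an unadjusted p under 0.05 and 0 by DESeq2), and 2 higher in the CreCtrl set (3.6% of all genes; Rragd and Vps35, named after their values were seen), with a median of 0.17, 0.10 and 0.20 beside -0.079, 0.013 and -0.022 over all genes. The 3 genes of highest mean CPM rose in the WT set: Psap, the precursor of the saposins, by 1.22 (adjusted p = 0.000663), Tpp1, a lysosomal tripeptidyl peptidase, by 1.29 (adjusted p = 0.00013) and Npc2, a lysosomal cholesterol carrier, by 1.01 (adjusted p = 0.00139). They had 0.40, 0.42 and 0.53 in the Ctrl set and 0.82, 0.49 and 0.62 in the CreCtrl set, without a call by edgeR. DESeq2 called the 3 genes in the CreCtrl set, at 0.85, 0.52 and 0.66 (adjusted p = 0.00125, 0.0242 and 0.01), and 7 of the 20. Without CreCtrl replicate 1 edgeR called them too, at 1.08, 0.63 and 0.83 (adjusted p = 0.00544, 0.0307 and 0.016).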

How the data were processed

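RPE of 14 mice was sequenced as poly(A) RNA with a stranded kit and paired-end reads. The deposited values are counts per Ensembl gene, which the authors made from reads aligned to GRCm38; the submitters' processing notes name STAR 2.5.2, HTSeq 0.11.2, Cufflinks 2.1.1 and bcl2fastq 2.19. The annotation release and strand setting of the counting were not given in the sources used here. Titles written in 3 styles, with the study's list of mice, placed the KO libraries in their sets. Of 42687 genes, 42329 were found in GENCODE M21, which gave names, positions and exon lengths.

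Within each set, edgeR's quasi-likelihood test (4.0.16, R 4.3.3) compared KO with control on the deposited counts, with TMM factors and the filterByExpr filter. The p-values were adjusted over all genes tested (Benjamini-Hochberg), and a call was an adjusted p under 0.05. Contrasts between sets used 1 fit of all 14 libraries in 6 groups, and the pooled contrast had the set as a term. Levels are CPM with TMM factors over the 14 libraries, so their ratios differ slightly from the fitted fold changes, which use the factors of a set. Log2 CPM used a prior count of 2. DESeq2 1.42.0 and the other alternatives are described in the closing section. The fits were tested on simulated data. Named genes were the 9 members, Clic4, the 5 genes nearest to Cst3 and up to 3 genes with the highest mean CPM of each list. The members and lists were chosen with earlier results of these data known. No counts or genes were imputed. Intervals for counting error are not given, since the replicates carry the error, and the limit of 3 counts covers counting error only. Python 3.11.15 with numpy 2.4.6, pandas 2.3.3 and matplotlib 3.10.9 made the summaries and plots.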

Additional observations from a re-analysis of the deposited data

Results flagged for a closer look

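The KO effect on Cstb differed between the WT and Ctrl sets by a log2 difference of 1.14 (SE 0.268, adjusted p = 0.0311 by edgeR's quasi-likelihood test). KO was above control in 3 of 3 mice of the WT set and below control in 2 of 2 mice of the Ctrl set. The result is listed because the difference of the 2 effects was itself tested and passed, and 9 of 19 alternatives ended the call, with values from 0.78 to 1.39 and adjusted p from 0.00447 to 0.221.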

How the results depend on the processing

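Counts below are members called out of the 8 other than Cst3, by edgeR unless another tool is named. A whole number in brackets after a count is the number of all genes called in the same fit. With library size alone, KO against WT had 4 (5658), Ctsl and Ctsz being added and lower. The difference of KO effects between the WT and Ctrl sets had 0 (548), WT against Ctrl 1 (3474) and WT against CreCtrl 4 (2058). RLE factors gave 0 (596), 1 (3578) and 4 (2069) in the last 3 of these. With all 14 libraries in 1 fit, KO against WT had 4 (6577), Ctsa and Ctsd being added and higher, and KO against CreCtrl 0 (704). DESeq2 called 3 (5847) in KO against WT, 1 (1168) in KO against Ctrl, 1 (899) in the difference between the WT and CreCtrl sets and 4 (2968) in WT against CreCtrl. With all genes of at least 1 count, there was 1 (1658) in KO against Ctrl, where the main fit called 0 genes. That setting gave 2 (2262) in the difference of the KO effect between the WT and Ctrl sets and 1 (1102) between the WT and CreCtrl sets. Between the CreCtrl and Ctrl sets it gave 1 (883), where the main fit called 0 genes. It also gave 2 (1384) in CreCtrl against Ctrl and 2 (6243) with all mice pooled. A fold change above 1.5 left 2 in the pooled contrast. Leaving out 1 library gave 1 to 2 in KO against CreCtrl, 0 to 1 in the WT minus Ctrl and CreCtrl minus Ctrl differences, 0 to 3 in WT against Ctrl and against CreCtrl, 0 to 2 in CreCtrl against Ctrl and 2 to 4 in the pooled contrast. Where that left 1 library in a group, it was assumed to vary like the other groups. Deviations of same-numbered KO and control libraries had correlations from -0.02 to 0.13, and those of the other pairs from -0.13 to 0.06. In groups of 2 the deviations mirror each other, so these values cannot decide whether the numbers paired the mice. With the replicate block the WT minus Ctrl difference had 0 (445) and the pooled contrast 2 (5200). Alternatives for Clic4 and the other lists were added after the data were seen. Of all values under all alternatives, 1446 kept their call or size, 66 lost and 24 gained a call, 76 moved and 0 reversed. Among uncalled values of the 8 members other than Cst3, 13 changed sign. Sign changes of uncalled list genes, such as Ctss and Lgmn in the Ctrl set, and of Cst3 between CreCtrl and Ctrl were not counted. The causes were not tested.

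Cst3 kept its direction in each set under all alternatives, from 2.13 to 2.65 against WT, 0.57 to 0.78 against Ctrl and 0.42 to 1.04 against CreCtrl. Groups of 2 limit the Ctrl and CreCtrl sets, and genes at few counts, such as Cst7, are limited by depth.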
